A study of Mus musculus with 6 samples.

Results

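The genes described here are 32 enzymes and regulators of cholesterol and fatty acid synthesis, taken by symbol from the gene table of a single-cell RNA-seq study of mouse skin, which lists 32285 genes; all 32 were found. They were grouped by role into 6 mevalonate pathway enzymes, 10 enzymes from squalene to cholesterol, 3 regulators, 5 genes of fatty acid supply and synthesis, 4 desaturases and 4 elongases. The skin came from Balb/c mice in 2 groups with 3 libraries each. EC-OVA skin carries the treatment label OVA-sensitized (OVA is ovalbumin, a protein allergen), and EC-SAL skin carries the label control. What both groups share is a 10 day course of epicutaneous sensitization, as the labels word it for all libraries, with skin taken 2 days later and digested with enzymes. Transcripts were counted at their 3′ ends as unique molecular identifiers (UMIs) with 10x Genomics chemistry. The age of the mice is not given in the sources used here, nor whether replicates were separate animals, so the spread behind each p-value is that among these libraries alone and could be technical.

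Cholesterol is built from acetyl-CoA through mevalonate, farnesyl diphosphate, squalene and lanosterol. Srebf2 encodes the transcription factor best known for switching on these enzymes when membranes run low in sterol, Srebf1 encodes its relative that favours fatty acid synthesis genes, and Insig1 encodes a protein of the endoplasmic reticulum that holds both back while sterol is plentiful. In skin, sebocytes of the sebaceous gland fill with wax esters, triglycerides and sterols until they burst and release them as sebum. Keratinocytes make cholesterol and very long fatty acids for the lamellar lipids of the barrier, and Schwann cells make both for myelin.

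Promoter windows, from 250 bases before to 50 bases after the annotated start, were found for 25 of the 32 members in RefSeq sequences of build GRCm38.p6. Those of Fdps, Fdft1, Sqle, Scd1, Scd2, Elovl3 and Fads1 were not among them. A CCAAT box (CCAAT on either strand), the site of the factor NF-Y that works beside the sterol-sensing factors, was present in 22 of the 25 members and in 41.1% of the 27025 genes with such a window. The members without it were Acaca, Fads2 and Elovl6. A sterol regulatory element written TCACNCCAC (either strand) was present in 1 of 25 members, Hmgcs1, and in 1.44% of genes, and an E-box written CACGTG was present in 5 of 25 members, Hsd17b7, Sc5d, Dhcr7, Insig1 and Elovl5, and in 8.09% of genes. Such matches are letters in a window and do not show binding. The windows of 3 members are shown, because they belong to the sterol enzyme called in 2 classes (Hmgcs1), the enzyme that fell in fibroblast-like cells (Msmo1) and an elongase of sebocyte-like cells without either motif (Elovl6); capitals mark CCAAT, or its reverse complement ATTGG, and the sterol regulatory element of Hmgcs1, whose first base lies 137 bases before the start.
Hmgcs1 (chr13:119690101-119690400, plus strand): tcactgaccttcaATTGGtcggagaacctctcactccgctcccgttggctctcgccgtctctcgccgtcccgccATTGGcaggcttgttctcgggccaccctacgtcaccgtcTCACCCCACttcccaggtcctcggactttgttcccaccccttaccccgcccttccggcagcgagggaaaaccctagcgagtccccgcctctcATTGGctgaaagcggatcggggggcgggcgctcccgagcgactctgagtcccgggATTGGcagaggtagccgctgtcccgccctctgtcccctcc
Msmo1 (chr8:64733529-64733828, minus strand): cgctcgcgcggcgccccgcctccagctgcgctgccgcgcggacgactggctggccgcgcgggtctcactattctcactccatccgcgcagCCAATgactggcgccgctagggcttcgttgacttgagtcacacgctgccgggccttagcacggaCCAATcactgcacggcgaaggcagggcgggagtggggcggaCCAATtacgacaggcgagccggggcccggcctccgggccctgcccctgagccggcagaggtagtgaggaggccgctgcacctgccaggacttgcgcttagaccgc
Elovl6 (chr3:129532136-129532435, plus strand): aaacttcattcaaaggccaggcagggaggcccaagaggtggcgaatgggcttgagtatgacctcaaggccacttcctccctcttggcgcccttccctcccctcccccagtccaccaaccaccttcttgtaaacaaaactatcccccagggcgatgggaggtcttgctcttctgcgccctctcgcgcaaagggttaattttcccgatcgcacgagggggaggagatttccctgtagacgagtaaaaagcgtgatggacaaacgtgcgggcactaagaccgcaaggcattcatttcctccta

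The 6 libraries held 25350813 to 33650630 UMIs, and 24432 cells were kept, 10972 from EC-OVA and 13460 from EC-SAL skin. The labels give the cell type as CD4, whereas lymphoid-like cells were 417 of the kept cells and most others were keratinocyte-, fibroblast- or endothelial-like, so the libraries are described as whole-skin suspensions. Cells fell into 31 clusters, named only where fixed markers allowed it, and neither members nor other listed genes took part in clustering or naming, except Awat2, a marker. Between 12 and 34 cell barcodes occurred in both libraries of a pair. The groups differed in their mix of cells: basal keratinocyte-like cells were 4.59% ± 0.16 of EC-OVA and 13.0% ± 0.69 of EC-SAL cells, suprabasal ones 7.55% ± 0.27 and 14.4% ± 0.30, and fibroblast-like cells 25.4% ± 1.6 and 17.4% ± 0.50 (SD, n = 3 each). Levels below are UMIs of a gene per 1000000 UMIs of a class (CPM), summed per library, over the 20 classes and clusters with at least 10 cells in every library. No cluster was adipocyte-like, and Adipoq, which defines adipocytes, had no UMI in fibroblast-like or sebocyte-like cells.

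Sebocyte-like cells had the highest levels of most members. They numbered 536 cells, 204 in EC-OVA and 332 in EC-SAL skin, and held 3.57% of all UMIs in kept cells, yet a median of 26.9% of the UMIs of a member. Of the 32 members, 26 had their highest mean level there, 23 of them in each of the 6 libraries. All 12 sebocyte markers were detected in the class, at a summed 16099 to 18280 CPM in EC-OVA and 14574 to 15238 CPM in EC-SAL libraries. They were far from even: Mgst1 alone averaged 8935.5 CPM. Cidec, with 10 UMIs (1.6 CPM), Plin5, with 31 UMIs (6.8 CPM), and Dgat2l6, at 12.1 CPM, were low. These levels describe the classes and carry no test.

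**Figure D1:**
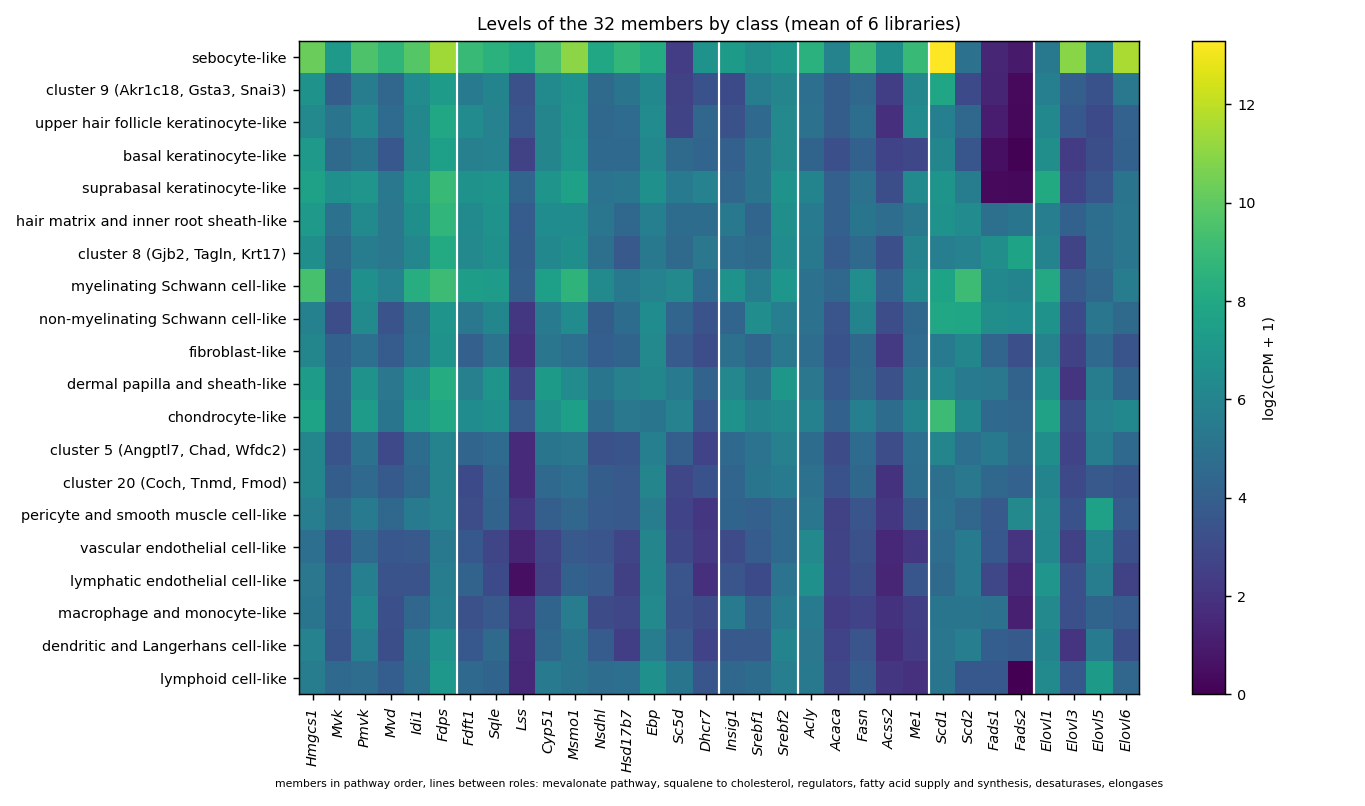
Mean level of each of the 32 members (columns, in pathway order) in 20 classes and clusters (rows), as log2(CPM + 1) over 6 libraries. The sebocyte-like row is brightest for 26 members, while Sc5d, Fads1, Fads2, Scd2 and Elovl1 are dark there.

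All 6 mevalonate enzymes were highest in sebocyte-like cells. Fdps, which makes farnesyl diphosphate, the branch point to squalene and to protein prenylation, averaged 2652 CPM (2065 to 3178 over libraries), and the next class, myelinating Schwann cell-like cells, averaged 554 CPM. Hmgcs1, which condenses acetyl-CoA units into HMG-CoA, averaged 1234 CPM in sebocyte-like cells against 681 CPM in myelinating Schwann cell-like cells, and the ranges of 1027 to 1535 and 464 to 955 CPM did not overlap. Idi1, the isopentenyl diphosphate isomerase, averaged 890 CPM, phosphomevalonate kinase Pmvk 776 CPM and mevalonate diphosphate decarboxylase Mvd 413 CPM in sebocyte-like cells. Mevalonate kinase Mvk was more even, at 140 CPM in sebocyte-like and 99.5 CPM in suprabasal keratinocyte-like cells.

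From squalene onward, 9 of 10 enzymes were highest in sebocyte-like cells. Lanosterol synthase Lss stood out by its concentration, with 51.0% of its UMIs there and 237 CPM, while the next class, suprabasal keratinocyte-like cells, had 19.5 CPM. Msmo1, a methylsterol oxidase that begins the removal of methyl groups from lanosterol products, averaged 2030 CPM and held 43.0% of its UMIs there. Its partners in that removal, Nsdhl and Hsd17b7, averaged 250 and 449 CPM. Squalene synthase Fdft1 averaged 508 CPM, squalene epoxidase Sqle 360 CPM, lanosterol demethylase Cyp51 724 CPM, sterol isomerase Ebp 287 CPM and the last reductase Dhcr7 110 CPM. The exception was Sc5d, the sterol desaturase that acts just before Dhcr7. It averaged 4.3 CPM in sebocyte-like cells, the lowest of the 20 classes, with 13 UMIs in EC-OVA and 7 in EC-SAL cells, against 75.4 CPM in myelinating Schwann cell-like and 58.2 CPM in chondrocyte-like cells. Cluster 9, whose leading genes Akr1c18 and Gsta3 also lead part of the sebocyte-like cells, was low in Sc5d too, at 4.9 CPM.

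**Figure D2:**
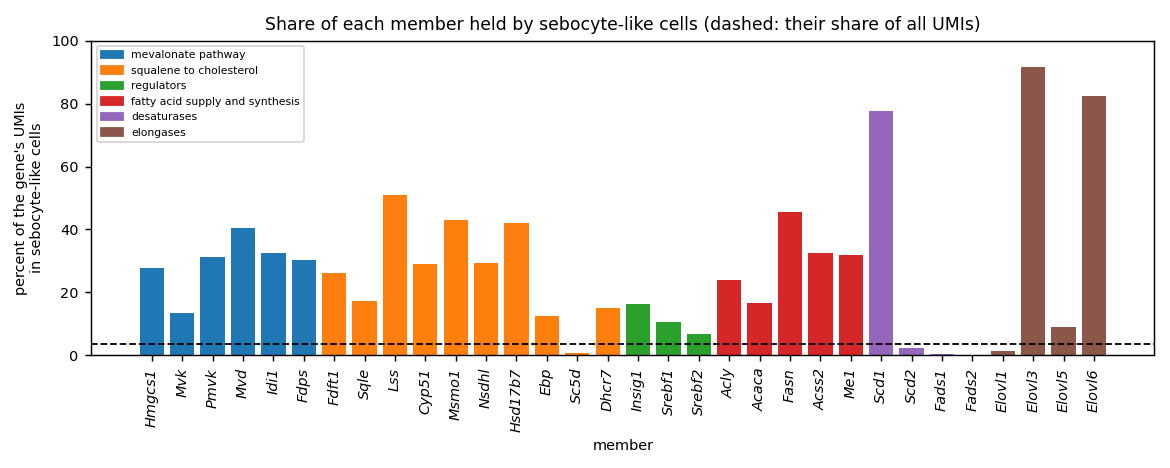
Percent of each member's UMIs, over all kept cells, that lie in sebocyte-like cells (bars, coloured by role), with the class's share of all UMIs as a dashed line at 3.57%. Elovl3 reaches 91.6%, Elovl6 82.4% and Scd1 77.5%, whereas Sc5d, Fads1, Fads2, Scd2 and Elovl1 lie below the line.

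The regulators stood out less in sebocyte-like cells than most of the enzymes did. Srebf2 averaged 131 CPM in sebocyte-like, 131 CPM in dermal papilla and sheath-like and 124 CPM in myelinating Schwann cell-like cells. Srebf1 averaged 94.0 CPM in sebocyte-like and 89.8 CPM in non-myelinating Schwann cell-like cells, and Insig1 151 CPM in sebocyte-like and 115 CPM in chondrocyte-like cells. For none of the 3 did the sebocyte-like range over libraries stand clear of the next class. The 5 genes of fatty acid supply and synthesis did: fatty acid synthase Fasn averaged 557 CPM with 91.3 CPM in the next class, ATP citrate lyase Acly 355 CPM with 101 CPM in lymphatic endothelial cell-like cells, and malic enzyme Me1, a source of NADPH, 493 CPM with 82.9 CPM in upper hair follicle keratinocyte-like cells. Acetyl-CoA carboxylase Acaca averaged 61.2 CPM and acetyl-CoA synthetase Acss2 96.8 CPM there.

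Desaturases and elongases differed among themselves in where they were highest. Scd1, the stearoyl-CoA desaturase whose loss shrinks the sebaceous glands of asebia mice, averaged 10038 CPM in sebocyte-like cells (8583 to 11934) and 556 CPM in chondrocyte-like cells. Elovl3, the elongase known from sebaceous glands and brown fat, averaged 1958 CPM and was 120-fold above the next class, and Elovl6, which lengthens palmitate, averaged 3116 CPM, 42.3-fold above the next. Scd2, the paralogue of Scd1, was instead highest in myelinating Schwann cell-like cells at 546 CPM and in non-myelinating ones at 224 CPM, and averaged 30.6 CPM in sebocyte-like cells. Fads1 and Fads2, the desaturases of polyunsaturated fatty acids, were close to 0 in sebocyte-like and in basal, suprabasal and upper hair follicle keratinocyte-like cells: Fads2 averaged 0.95 CPM in sebocyte-like cells and had 1 UMI in all basal keratinocyte-like cells. They were highest in cluster 8, led by Gjb2, Tagln and Krt17 (Fads1 92.7 CPM, Fads2 209 CPM), and in non-myelinating Schwann cell-like cells (95.2 and 86.7 CPM). Elovl5, which serves polyunsaturated fatty acids, was highest in pericyte and smooth muscle cell-like cells at 194 CPM and lymphoid-like cells at 152 CPM. Elovl1, which makes very long saturated chains, reached 268 CPM in suprabasal keratinocyte-like and 264 CPM in myelinating Schwann cell-like cells, with overlapping ranges, and was lowest of all classes in sebocyte-like cells at 40.3 CPM.

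Outside sebocyte-like cells, the myelinating Schwann cell-like cells were the richest class: the 6 mevalonate enzymes summed to 1722 CPM there (1071 to 2151) and the 10 later sterol enzymes to 1211 CPM. Of the 12 sebocyte markers, 6 were at 0 in that class (Cidec, Pparg, Plin5, Awat2, Dgat2l6 and Mc5r). Of the other 6, Ldhb averaged 974 CPM there and 811 CPM in sebocyte-like cells, Mgst1 62.2 against 8935 CPM, Apoc1 15.2 against 1843 CPM, Cidea 8.7 against 2677 CPM, Awat1 5.4 against 377 CPM and Far2 3.3 against 1033 CPM. Among keratinocyte states, suprabasal cells summed to 1076 CPM of mevalonate enzymes and basal cells to 463 CPM. Vascular endothelial cell-like cells had the lowest sum, 122 CPM. Most sterol enzymes had similar profiles over classes. As a description, each member's log2(CPM + 1) profile was correlated with the mean profile of the other sterol enzymes over the 19 classes other than sebocyte-like cells. Fdps had a Pearson r of 0.97, Sqle 0.94, Cyp51 0.94, Idi1 0.94 and Srebf2 0.89, while Acly had −0.15, Ebp −0.05, Fads1 −0.03 and Elovl5 −0.37. These classes share libraries. Low counts can lower r, but the levels did not follow r throughout. Over these classes Acly averaged 18.6 to 101 CPM and Ebp 35.4 to 102 CPM. Lss, at 0.44 to 19.5 CPM, had an r of 0.90. The part of low counts in these values was not tested.

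Sebocyte-like cells were not uniform. At a finer clustering resolution of 2.0 they fell into a cluster of 340 of these cells led by Akr1c18 and Cidea and a cluster of 196 led by Fa2h, Serpinb6d, Awat1 and Elovl3. By the naming rule only the 196 kept the sebocyte name, and the 340 stayed unnamed. In the 340, 55.6% of basal keratinocyte markers and 50% of sebocyte markers were raised, so basal keratinocyte was the first candidate. That name was refused because the 10 leading genes held the sebocyte markers Cidea and Far2 and no basal keratinocyte marker. In the smaller cluster Elovl3 averaged 4327 CPM against 683 CPM in the larger, Msmo1 3774 against 1094 CPM, Scd1 17268 against 6108 CPM and Lss 355 against 176 CPM. Fdps was closer, at 2892 and 2528 CPM, and Srebf1 ran the other way, at 65.8 and 110 CPM.

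Genes of the same pathways outside the 32 followed in part. Of 8 other sterol synthesis genes, 6 were highest in sebocyte-like cells, among them Acat2, an acetyl-CoA acetyltransferase that feeds the pathway, at 634 CPM. Of 21 other fatty acid synthesis and elongation genes 11 were highest there, including Scd3 at 204 CPM and Elovl4 at 1756 CPM, and of 10 triglyceride and wax ester genes 6. Of 16 genes of sterol sensing, uptake and export only Scap was; the exporter Abcg1 had 0.62 CPM in sebocyte-like cells. Scd1, Scd2 and Scd3 are paralogues, as are Fads1 and Fads2, so reads could be split between them by the authors' counting, and 13 of the 32 members overlap an annotated gene on the other strand; whether counting used strand is not given in the sources used here.

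Between the groups, 412 tests of a member within a class gave 7 calls, 3 higher and 4 lower in EC-OVA skin, spread over 5 of 20 classes. Of all genes tested in a class, 0% (non-myelinating Schwann cell-like cells) to 11.2% (dendritic and Langerhans cell-like cells) were called. The share of each class stands beside its members below. A call is an edgeR p adjusted over all genes tested in that class under 0.05. Counts of members with an unadjusted p under 0.05 are no calls, and the share of all genes with such a p is not given here.

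**Figure D3:**
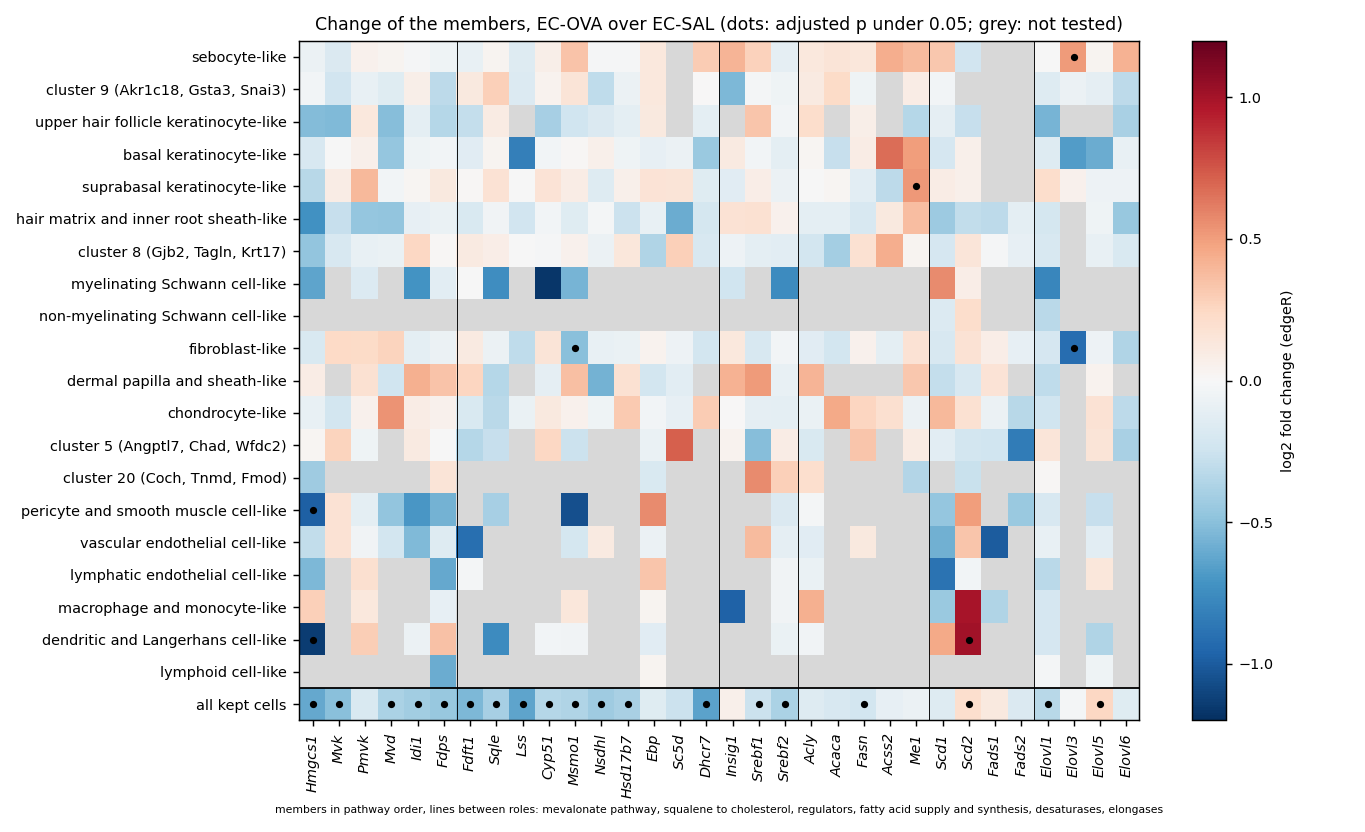
The log2 fold change of each member (columns) in EC-OVA over EC-SAL skin for 20 classes and clusters and for all kept cells (bottom row), with dots on calls and grey where a member did not pass the filter on low counts. Within classes 7 dots are scattered over 5 rows, while the bottom row has 19.

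In sebocyte-like cells Elovl3 was higher in EC-OVA skin. It had 2215, 2364 and 2306 CPM in EC-OVA libraries, against 1478, 1619 and 1768 CPM in EC-SAL libraries. The groups did not overlap, and the difference was 0.52 ± 0.11 on the log2 scale (SE, adjusted p = 0.0459). Elovl3 lies on chromosome 19, 46131897 to 46135694 on the plus strand of mm10, and overlaps Pitx3 on the other strand. It was the only call among 29 members tested, beside 0.632% of all 6641 genes tested in the class. Elovl6 came nearest, with 3352, 3903 and 3383 CPM in EC-OVA and 2532, 2713 and 2812 CPM in EC-SAL libraries (0.42 ± 0.11, adjusted p = 0.143), and Scd1 had 10144, 11237 and 11934 CPM against 8583, 8996 and 9333 CPM (0.32 ± 0.10, adjusted p = 0.207). For both the groups did not overlap, but the adjusted p missed the threshold. Me1 (0.38 ± 0.11, adjusted p = 0.207) and, of the sterol enzymes tested, Msmo1 also had groups that did not overlap. Msmo1 had 1934, 2292 and 2556 CPM in EC-OVA and 1725, 1743 and 1928 CPM in EC-SAL libraries (0.34 ± 0.12, adjusted p = 0.282). The other sterol enzymes tested overlapped; Fdps, for example, had 2541, 2065 and 3178 CPM in EC-OVA and 2740, 2885 and 2503 CPM in EC-SAL libraries. The median change of the 29 members was 0.05, with 18 positive, beside −0.01 for all genes. Sc5d, Fads1 and Fads2 did not pass the filter on low counts.

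The Elovl3 call was lost in each of the 6 fits that left out 1 library (adjusted p 0.0549 to 0.276) and within the finer clusters: 0.28 ± 0.12 (adjusted p = 0.450) in the cluster of 196 cells and 0.11 ± 0.19 (adjusted p = 0.999) in that of 340. In the same order, Elovl6 had 0.24 ± 0.12 and 0.20 ± 0.14, and Scd1 0.22 ± 0.11 and 0.06 ± 0.15. Me1 had 0.24 ± 0.15 and 0.22 ± 0.16, and Msmo1 0.12 ± 0.13 and 0.17 ± 0.18. None of these was called (adjusted p at least 0.552). The cluster of 196 made up 37.7 to 50.8% of sebocyte-like cells in EC-OVA and 30.6 to 38.1% in EC-SAL libraries. The part of this shift in the Elovl3 call and in the changes of these members was not tested further. Of other lipid genes in the class, Elovl4, which builds ultra-long chains, was also higher in EC-OVA skin (1.13 ± 0.20, adjusted p = 0.0180), 1 of 13 tested of its list. Elovl4 was among the leading genes of the cluster of 196, and its change within the finer clusters is not given here. Of 8 other sterol synthesis genes, 13 of sterol sensing and 10 of triglyceride and wax ester synthesis, none was called. Of 17 tissue dissociation genes tested, Fos, Atf3 and Ier2 were lower in EC-OVA skin, and the list summed to 4779 to 5648 CPM in EC-OVA and 5618 to 6476 CPM in EC-SAL libraries; its part in the Elovl3 result was not tested.

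**Figure D4:**
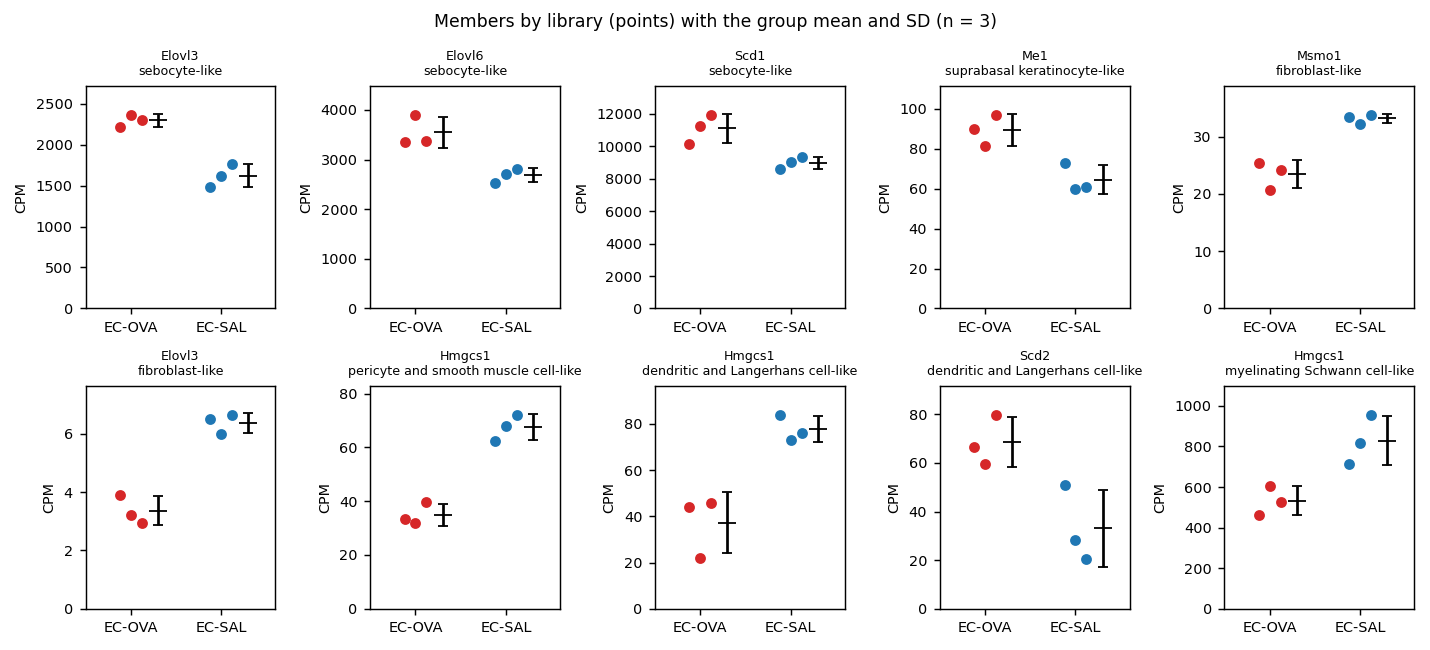
CPM of a member in a class, 1 point per library, with mean and SD (n = 3) beside the points and EC-OVA left of EC-SAL. Shown are the 7 calls within classes, Elovl6 and Scd1 in sebocyte-like cells and Hmgcs1 in myelinating Schwann cell-like cells. Some uncalled members nearer the threshold, such as Pmvk in suprabasal keratinocyte-like cells, are not shown. In each panel the 2 groups do not overlap, including the panels of Elovl6, Scd1 and Schwann Hmgcs1, whose adjusted p missed the threshold. Non-overlap is no test, and the share of all genes whose groups separate is not given here.

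In suprabasal keratinocyte-like cells Me1, the malic enzyme, was higher in EC-OVA skin. It had 90.1, 81.2 and 97.0 CPM in EC-OVA and 72.7, 59.7 and 60.8 CPM in EC-SAL libraries, without overlap (0.52 ± 0.09, adjusted p = 0.0204). Me1 lies on chromosome 9, 86581371 to 86695953 on the minus strand. It was 1 call of 30 members tested, beside 1.08% of all genes in the class; Pmvk, on the other side of the threshold, had 153, 115 and 134 CPM in EC-OVA and 106, 108 and 103 CPM in EC-SAL libraries (0.39 ± 0.08, adjusted p = 0.0557). The Me1 call was lost without EC-SAL replicate 2 (adjusted p = 0.138), EC-SAL replicate 3 (0.103) or EC-OVA replicate 3 (0.118). Among lipid genes outside the members, Fabp5, a fatty acid binding protein of stressed epidermis, was higher (0.41 ± 0.07, adjusted p = 0.0163). Of 18 dissociation genes, Atf3 and Ier2 were lower and Dusp1 was higher; their part was not tested.

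In basal keratinocyte-like cells no member of 30 was called (0.032% of all genes were, and 5 members had an unadjusted p under 0.05). The smallest p belonged to Dhcr7, with 16.04, 17.8 and 14.0 CPM in EC-OVA and 23.1, 21.2 and 21.5 CPM in EC-SAL libraries (−0.44 ± 0.16, adjusted p = 0.460), and to Hmgcs1, with 133, 129 and 141 CPM against 172, 140 and 154 CPM (adjusted p = 0.548). With a stricter filter on cells, 5 members were called in the class, beside 5.31% of genes: Me1, Fads1 and Fads2 higher, Hmgcs1 and Scd1 lower. That clustering put 230 to 314 EC-OVA and 623 to 751 EC-SAL cells per library in the class. In the main clustering these were 158 to 173 and 537 to 610. The stricter clustering had no cluster 8, the cluster highest in Fads2. It also had no upper hair follicle keratinocyte-like or myelinating Schwann cell-like class with at least 10 cells in every library. In the basal class as named here Fads1 had 1 UMI in EC-OVA and 10 UMIs in EC-SAL skin. Where the added cells came from, and their part in the 5 calls, was not tested. In upper hair follicle keratinocyte-like cells no member of 23 was called (0.0171% of genes; 1 member, Elovl1, had an unadjusted p under 0.05, at −0.55 ± 0.21 and adjusted p = 0.759). In hair matrix and inner root sheath-like cells no member of 31 was called (0.0425% of genes; 4 members had an unadjusted p under 0.05), and Hmgcs1 had 77.6, 93.7 and 149 CPM in EC-OVA and 189, 143 and 201 CPM in EC-SAL libraries (−0.73 ± 0.22, adjusted p = 0.702).

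Myelinating Schwann cell-like cells gave no call among 13 members tested, beside 0.569% of 1583 genes. They were few, 30 to 43 cells in EC-OVA and 67 to 82 in EC-SAL libraries, and a library held 59346 to 132752 UMIs of the class. Of the 13 members 11 had negative values, the median was −0.56 beside 0.01 for all genes, and 7 had an unadjusted p under 0.05. The 13 are only the members that passed the filter on low counts. Without the share of all genes with such a p, these counts do not show a joint fall of the members. Hmgcs1 had 464, 607 and 527 CPM in EC-OVA and 716, 817 and 955 CPM in EC-SAL libraries (−0.63 ± 0.20, adjusted p = 0.371). Cyp51 had 38.7, 135 and 161 CPM against 324, 207 and 233 CPM (−1.17 ± 0.36, adjusted p = 0.324). Neither pair of groups overlapped, but neither passed the threshold. Scd2 had 581, 506 and 581 CPM in EC-OVA and 482, 492 and 634 CPM in EC-SAL libraries, with overlap. In non-myelinating Schwann cell-like cells only Scd1, Scd2 and Elovl1 could be tested, and none was called, nor was any gene (0% of 1791); no member had an unadjusted p under 0.05.

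In fibroblast-like cells Msmo1 and Elovl3 were lower in EC-OVA skin, 2 of 32 members, beside 3.58% of genes called lower and 8.22% called in either direction. Msmo1 (chromosome 8, 64718139 to 64733792, minus strand) had 25.4, 20.7 and 24.2 CPM in EC-OVA and 33.5, 32.3 and 33.8 CPM in EC-SAL libraries, without overlap (−0.50 ± 0.09, adjusted p = 0.00597). Elovl3 had 3.9, 3.2 and 2.9 CPM in EC-OVA and 6.5, 6.0 and 6.6 CPM in EC-SAL libraries (−0.92 ± 0.22, adjusted p = 0.0219). Sebocyte-like cells averaged 1958 CPM of Elovl3 and held 91.6% of its UMIs. Whether its low counts in fibroblast-like cells came from those cells themselves was not tested. Over the 19 classes and clusters other than sebocyte-like cells, Elovl3 averaged 2.9 to 16.3 CPM, and its EC-OVA mean was below its EC-SAL mean in 14 and above it in 5. It could be tested in 3 of these beside fibroblast-like cells, with −0.67 ± 0.44 in basal keratinocyte-like cells (adjusted p = 0.731), −0.07 ± 0.30 in cluster 9 (0.992) and 0.05 ± 0.26 in suprabasal keratinocyte-like cells (0.964). DESeq2 called neither (adjusted p = 0.0542 for Msmo1 and 0.135 for Elovl3), the Elovl3 call was lost in 4 of 6 fits without a single library (adjusted p 0.0580 to 0.0773), and Scd1 came nearest among the rest (−0.19 ± 0.07, adjusted p = 0.144). Beside them, 11 of 18 dissociation genes were lower and 1 higher, with a sum of 13024 to 14984 CPM in EC-OVA and 17523 to 18540 CPM in EC-SAL libraries, and 9 of 12 cell cycle genes were higher, for example Birc5 (1.48 ± 0.12, adjusted p = 1.9e-05); the part of either was not tested. Of other lipid genes, Fabp5 and the dehydratase Hacd1 were higher and Elovl4 and Mylip, a ubiquitin ligase of sterol uptake, were lower.

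Hmgcs1 was lower in EC-OVA skin in pericyte and smooth muscle cell-like and in dendritic and Langerhans cell-like cells. It lies on chromosome 13, 119690379 to 119708260 on the plus strand. In pericyte and smooth muscle cell-like cells it had 33.5, 31.9 and 39.7 CPM in EC-OVA and 62.5, 67.9 and 72.0 CPM in EC-SAL libraries (−0.98 ± 0.24, adjusted p = 0.0220), 1 of 16 members, beside 3.49% of genes. Msmo1 in the same class had 17.5, 10.1 and 11.3 CPM against 23.2, 32.5 and 25.7 CPM (adjusted p = 0.162). In dendritic and Langerhans cell-like cells Hmgcs1 had 43.9, 22.2 and 45.7 CPM in EC-OVA and 83.8, 73.1 and 76.1 CPM in EC-SAL libraries (−1.14 ± 0.26, adjusted p = 0.0116), and Scd2 had 66.6, 59.5 and 79.7 CPM against 50.9, 28.1 and 20.3 CPM (1.01 ± 0.29, adjusted p = 0.0374). Neither pair overlapped; these were 2 of 14 members, beside 11.2% of genes. The counts were small, 61 and 78 UMIs of Hmgcs1 in pericyte-like and 83 and 84 UMIs in dendritic-like cells in EC-OVA and EC-SAL skin, in that order. DESeq2 kept the dendritic Hmgcs1 call and not the pericyte one (adjusted p = 0.204), and not that of Scd2 (adjusted p = 0.109). With doublets kept, both dendritic calls were lost (adjusted p = 0.220 for Hmgcs1 and 0.128 for Scd2). Leaving out single libraries ended the pericyte call in 5 of 6 cases (adjusted p 0.0535 to 0.0952), the dendritic Hmgcs1 call in 1 (without EC-SAL replicate 1, adjusted p = 0.0501) and that of Scd2 in 4 (0.0638 to 0.162). Dissociation genes were lower too, 5 of 17 in pericyte-like and 8 of 17 in dendritic-like cells, and their part was not tested. Over all classes Hmgcs1 could be tested in 18 and its value was negative in 15. Such a count was not particular to Hmgcs1. Srebf2 was negative in 15 of 18 classes and Elovl1 in 17 of 20, and neither was called within a class. Scd2 was negative in 7 of 18. The share over all genes is not given here. These classes come from the same 6 libraries and are not independent.

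No member was called in the other 10 classes and clusters. Chondrocyte-like cells came nearest, where Scd1 had 701, 565 and 613 CPM in EC-OVA and 531, 439 and 486 CPM in EC-SAL libraries (0.38 ± 0.10, adjusted p = 0.0884; 1.24% of genes were called there, and 4 members had an unadjusted p under 0.05). In macrophage- and monocyte-like cells, where 7.92% of genes were called, Insig1 had 37.3, 18.8 and 31.99 CPM against 42.9, 61.3 and 67.6 CPM (adjusted p = 0.0849) and Scd2 48.2, 58.4 and 31.99 CPM against 24.5, 23.0 and 21.3 CPM (adjusted p = 0.113), the 2 members with an unadjusted p under 0.05. In vascular endothelial cell-like cells Fads1 (adjusted p = 0.0987) and Fdft1 (0.150) had the smallest p, both with negative values (3.37% of genes; 3 members had an unadjusted p under 0.05), and in cluster 5, led by Angptl7 and Chad, Fads2 did (−0.84 ± 0.24, adjusted p = 0.192; 0.476% of genes; 3 such members). Lymphatic endothelial cell-like cells had their smallest p for Scd1 (−0.88 ± 0.34, adjusted p = 0.355) and Fdps (−0.61 ± 0.26, adjusted p = 0.432), with 1.13% of genes called and 4 members at an unadjusted p under 0.05. Lymphoid-like cells had it for Fdps (−0.60 ± 0.26, adjusted p = 0.422; 1.43% of genes; 1 such member), and cluster 8 for Hmgcs1 (−0.48 ± 0.13, adjusted p = 0.467; 0.0479% of genes; 1 such member). In cluster 9, dermal papilla and sheath-like cells and cluster 20, led by Coch and Tnmd, the smallest adjusted p of a member was 0.662, 0.906 and 0.889, with 0.0653%, 0.222% and 0.473% of genes called and 1, 0 and 0 members at an unadjusted p under 0.05. In cluster 8, where the level of Fads2 was highest, it had 181, 211 and 209 CPM in EC-OVA and 265, 208 and 180 CPM in EC-SAL libraries, with overlap.

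Whether the EC-OVA effect differed between classes was tested with each library as a block. Between sebocyte-like and the sum of basal and suprabasal keratinocyte-like cells, no member of 30 differed (0.188% of genes were called higher and 0.297% lower; Pmvk came nearest, −0.44 ± 0.11, adjusted p = 0.0520). Between fibroblast-like and keratinocyte-like cells 4 of 32 members differed, all with the lower value in fibroblast-like cells, beside 4.22% of genes in that direction and 4.82% in the other: Msmo1 (−0.61 ± 0.11, adjusted p = 0.000172), Elovl1 (−0.46 ± 0.09, adjusted p = 0.000402), Me1 (−0.53 ± 0.15, adjusted p = 0.0212) and Fdps (−0.27 ± 0.08, adjusted p = 0.0249). Without the block, and after leaving out EC-OVA replicate 3, only Elovl1 and Msmo1 were called; Me1 was also lost without EC-SAL replicate 2 or 3, and Fdps without EC-SAL replicate 1 or EC-OVA replicate 1. In the keratinocyte sum, 3 members were called, all higher in EC-OVA skin, beside 5.05% of genes: Me1 (0.76 ± 0.08, adjusted p = 0.00129), Pmvk (0.51 ± 0.07, adjusted p = 0.00328) and Elovl1 (0.30 ± 0.05, adjusted p = 0.0128). Suprabasal cells were 62.0 to 62.5% of that sum's cells in EC-OVA and 50.9 to 54.5% in EC-SAL libraries. Within basal cells alone Elovl1 had a negative value (−0.16 ± 0.09). In suprabasal and basal cells alone, the largest values were 0.52 and 0.67 among fatty acid supply and synthesis genes. They were 0.39 and 0.06 among mevalonate enzymes and 0.21 and −0.09 among elongases. Each of the 3 pooled values thus lay above those of its role in both states. The part of the changed share in these calls and in the differences from fibroblast-like cells was not tested.

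Over all kept cells, where fewer cells of a class and less RNA per cell cannot be told apart, more members were called than within classes. Of the 32 members 17 were lower and 2, Scd2 and Elovl5, higher in EC-OVA skin, beside 22.3% of genes called lower and 22.5% called higher. The lower ones included 5 of 6 mevalonate enzymes and 8 of 10 later sterol enzymes. Hmgcs1 had 129, 107 and 144 CPM in EC-OVA and 199, 174 and 187 CPM in EC-SAL libraries (−0.62 ± 0.09, adjusted p = 0.000700), Lss 14.2, 11.7 and 13.8 CPM against 20.1, 19.99 and 19.0 CPM (−0.63 ± 0.06, adjusted p = 0.000178) and Dhcr7 21.2, 18.2 and 20.9 CPM against 32.7, 27.1 and 30.5 CPM (−0.64 ± 0.07, adjusted p = 0.000245). When every class was instead weighted by its mean share of UMIs in EC-SAL skin, the median log2 ratio of the 16 sterol enzymes was −0.03, against −0.35 as sampled, and that of all 32 members was −0.01, against −0.20. At that fixed mix Hmgcs1 kept a ratio of −0.23 and Lss −0.17, Msmo1 was at 0.13, and Elovl3, Elovl6, Me1 and Scd1 had the largest positive ratios, 0.44, 0.30, 0.28 and 0.25. The mix was fixed between classes only, so the shift between the finer clusters of sebocyte-like cells stays in these ratios. Its part in them was not tested. The weighting was chosen after the data were seen and has no test.

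**Figure D5:**
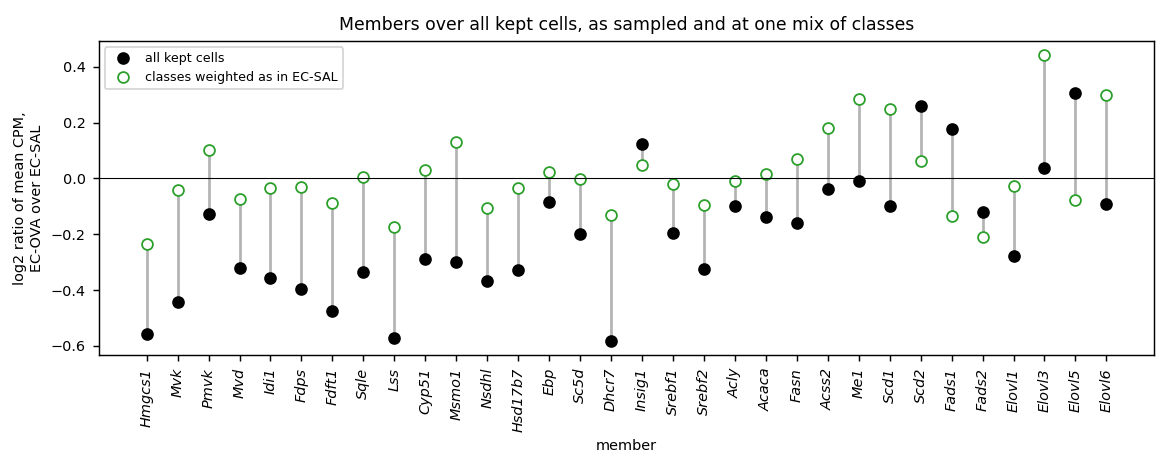
Log2 ratio of mean CPM, EC-OVA over EC-SAL, of each member over all kept cells (filled points) and with all classes weighted by their EC-SAL share of UMIs (open points). Filled points lie below 0 for 27 of 32 members, and open points for 18.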

How the data were processed

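Single-cell RNA-seq libraries of digested mouse skin were made with 10x Genomics 3′ chemistry, and the authors deposited whole-number UMI counts per gene and cell barcode; per the file headers they were made with Cell Ranger 3.1.0, and the submitters' processing notes name STAR and mm10. For the annotation release and the strand setting of the counting, the labels and headers have no entry. Of 38206 barcodes, 24432 were kept (at least 300 genes, at most 15% mitochondrial UMIs, no barcode scored as a doublet at a rate of 0.8% per 1000 barcodes), with 3405 to 3897 cells per EC-OVA library and 4108 to 4994 per EC-SAL library. Cells were clustered with scanpy 1.11.5 and leidenalg 0.10.2 on 2000 variable genes without members or listed genes (40 principal components, 20 neighbours, Leiden resolution 1.0, seed 1) and named from fixed markers; Awat2 alone was both a marker and a listed gene. Counts were summed per class and library and tested with the quasi-likelihood test of edgeR 4.0.16 (filterByExpr, TMM, Benjamini-Hochberg over all genes tested, threshold 0.05), 3 libraries against 3. The test was checked on simulated counts. Alternatives were DESeq2 1.42.0, RLE size factors, no filter on low counts, a replicate block, each library left out, doublets kept, stricter cells (1000 genes, 10% mitochondrial UMIs), Leiden resolution 2.0 and clustering with the members; the EC-SAL weighting and the finer sebocyte clusters were added after the data were seen. Named are the members past the threshold or the 2 with the smallest p in a class, the member nearest the threshold, and up to 4 genes per list and class. Members and lists were chosen with earlier results of these data known. Some genes of the lists are not reported here.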

Additional observations from a re-analysis of the deposited data

Results flagged for a closer look

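For 4 members the EC-OVA effect differed between fibroblast-like cells and the sum of basal and suprabasal keratinocyte-like cells, by a test of that difference itself (edgeR, adjusted over all genes). The difference, fibroblast minus keratinocyte, was −0.61 for Msmo1, −0.46 for Elovl1, −0.53 for Me1 and −0.27 for Fdps on the log2 scale. The share of suprabasal cells in the keratinocyte sum also differed between the groups, and its part in these differences was not tested. Without the block, the calls of Me1 and Fdps were lost, and each was lost in 3 of the 6 fits that left out 1 library.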

How the results depend on the processing

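Deviations of same-numbered libraries from their group means were weakly correlated (−0.08 to 0.09). Such values cannot settle whether the numbers pair the libraries, and the labels do not say. The counts of called members below stand without the share of all genes called under the same setting. They therefore do not show whether members and all genes changed alike. With the replicate block, 2 members were called in sebocyte-like cells (Elovl3 and Elovl6), 2 in suprabasal keratinocyte-like cells (Pmvk and Me1) and 1 in chondrocyte-like cells (Scd1). For the difference between fibroblast- and keratinocyte-like cells, the fit with no block called 2 (Elovl1 and Msmo1) instead of 4. DESeq2 called 0 members in fibroblast-like, 0 in pericyte-like and 1 in dendritic-like cells. Without the filter on low counts, 2 were called in chondrocyte-like, 1 in hair matrix-like and 3 in suprabasal keratinocyte-like cells. With doublets kept, 0 were called in sebocyte-like and 0 in dendritic-like cells. Stricter cells gave 5 in basal keratinocyte-like, 1 in dendritic-like and 0 in pericyte-like cells. Leiden resolution 2.0 gave 0 in sebocyte-like cells, which there are the cluster of 196 alone, 0 in the unnamed cluster of 340, 0 in suprabasal keratinocyte-like and 1 in chondrocyte-like cells. With members in the clustering, 0 were called in sebocyte-like and 2 in suprabasal keratinocyte-like cells. Without single libraries, the counts were 0 to 0 in sebocyte-like, 0 to 2 in suprabasal keratinocyte-like, 0 to 1 in chondrocyte-like, 0 to 1 in pericyte-like, 1 to 2 in dendritic-like and 1 to 2 in fibroblast-like cells, 18 to 21 over all kept cells, 2 to 4 for the fibroblast and 0 to 2 for the sebocyte difference, and 24 to 26 members were highest in sebocyte-like cells. Values that changed sign were Elovl5 in lymphoid-like cells, 0.00058 without the filter and −0.38 to 0.24 without single libraries, against −0.06, and Scd2 in non-myelinating Schwann cell-like cells, −0.13 with stricter cells against 0.21. The cause was not tested. Depth limits the small classes: 3 members could be tested in non-myelinating Schwann cell-like and 4 in lymphoid-like cells.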
